A study of Mus musculus with 71 samples.

Results

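During the induction of mouse embryonic stem cells towards directly induced oocyte-like cells (DIOLs), some transcripts were higher on days 3 to 7 than on both day 1 and day 14. The 150 such genes described here were chosen by a score on the expression values themselves, from 15140 genes. Values are TPM, a relative abundance corrected for transcript length and scaled to the same total in every library. The score is the highest of the day 3, day 5 and day 7 group means of log2(TPM + 1) in the induction labelled DIOLs.S, minus the higher of the day 1 and day 14 means. A gene needed a mean of at least 10 TPM at its peak and a score of at least 1, which 821 genes had, and the 150 with the highest scores are the members. Symbols that begin with Hist, Kif, Zfp, Slc, Mrp, Syc, Hormad or Tdrd were left out by the rule, and 50 such genes would have met the minimums. The high values at days 3 to 7 and the low values at days 1 and 14 are therefore how the members were picked and not a finding, and no DIOLs.S value is tested. On day 1, 42 of the 150 were under 1 TPM and 21 had at least 10 TPM, and on day 14 these numbers were 66 and 13.

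All cells share the C57BL/6 X 129 background. The DIOLs.S groups (days 1, 3, 5, 7 and 14), the DIOLs groups (days 5, 10, 15 and 25) and the matured metaphase II (MII) DIOLs carry the genotype label MGA8, and the labels say neither what MGA8 nor what the S denotes. Per the labels' protocols, DIOLs were aggregated in medium with stem cell factor, the ROCK inhibitor Y-27632 and 0.5 µM Shield1, a ligand that stabilises proteins carrying a destabilising domain. For MII DIOLs the stem cells were instead aggregated, again with Shield1, together with somatic cells of the female gonad taken on E12.5, and follicles were isolated by hand, grown and matured in vitro. The other cells carry the Blimp1-Venus and Stella-CFP reporters. They are competent and incompetent germinal vesicle (GV) oocytes taken from mice, whose columns in the table carry the tags 3w for competent and 2w for incompetent oocytes, and in vitro oocytes from germ cells made from stem cells, aggregated with the same kind of gonadal somatic cells, treated with retinoic acid and later the oestrogen receptor blocker ICI182780, and sorted as what the labels call SC-positive oocytes. The in vitro oocytes are knockouts of 15 genes on day 13 and of 4 genes on day 11 (Lhx8, Figla, Stat3 and Sub1), with wild type on both days. Each group has 2 libraries, and each GV group has 3. The labels name no clones, animals or separate cultures, so the p-values below reflect a spread that may be only technical.

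An oocyte starts as a germ cell that enters meiosis in the embryo, pairs and recombines its chromosomes, arrests, and is then enclosed by granulosa cells in a follicle. Genes for recombination are switched off as the oocyte starts to grow, while granulosa cells make inhibins, anti-Müllerian hormone and steroid enzymes. A separate group of mouse gene families (Tcstv, Tdpoz, Pramef) is known for bursts of expression in the embryo just after its genome is activated. By textbook role the members hold 13 genes of meiosis and the germ cell, 14 of early-embryo families, 15 of gonadal hormone and steroid action and 4 signal-dependent transcription factors. They also hold 15 matrix and adhesion genes, 10 growth factors and receptors, 11 enzymes, 13 complement and defence genes, 10 genes of muscle and excitable cells, 8 developmental regulators and 37 others. The members are transient by construction, and they are not 1 kind of gene.

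The table's used genes hold 52.1% to 70.8% of each library's TPM total, and 8011 to 10596 genes per library reach 1 TPM. The read depth behind TPM values is unknown, so no counting error can be given. Replicates correlated at 0.967 to 0.997 across genes, except the Sohlh1 knockouts at 0.873. All 19 knockouts were analysed, but only 12 of the knocked-out genes were among the genes used. Of these 12, 8 were under 50% of wild type in their knockouts. Sub1 stood at 71.1%, Thap7 at 59.2% and Sfr1 at 53.0% of wild type. Figla, Nobox, Ybx3, Foxr1, Mef2b, Noto and Tcf25 were not among the genes used, so their own levels could not be checked. Ccnk stood at 101.5% of wild type, so the libraries labelled Ccnk knockout are named as such. Among the DIOLs.S groups, the day-7 replicates had the lowest correlation across genes, 0.978, against 0.986 on day 14. At day 7, 41 members were at least 2 times higher in replicate 1 than in replicate 2, while 24 were the other way round. The members' median log2 difference, replicate 1 minus replicate 2, was -0.054 on day 7 and -0.181 on day 14, where 66 members were under 1 TPM. The summed level of 18 measured granulosa and gonadal somatic genes was 2376 TPM in day 7 replicate 1 and 557 TPM in day 7 replicate 2. Of these 18 genes 8 are members, so the sum is not separate from the members' values. In such bulk libraries fewer cells of a type and less RNA per cell cannot be told apart. Without DIOLs.S day 7 replicate 1, 131 members stay among the 150. Of the 39 members that peak on day 7, 20 stay, 27 still peak on day 7 and 12 do both. The genes that drop out include Inhbb, Hsd17b1, Dcn, Hey2 and Jun.

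Scores ran from 5.89 for Hsd3b1 to 2.15, with a median of 2.75. The peak fell on day 3 for 40 members, on day 5 for 71 and on day 7 for 39, while 21 of the 150 genes chosen without DIOLs.S day 7 replicate 1 peak on day 7. Just inside the limit were Npnt, Bmi1, Serpina3a and Lrrn4, with scores of 2.18 to 2.15. Just outside were Tmem18, Cep83os, Pcdh15, Epha4 and Cyb5rl, with scores of 2.13 to 2.09. All 150 members matched the GENCODE M21 annotation of mouse build GRCm38, and 145 are protein coding. Among the members, 12 share at least 20% of their 50-base stretches with another annotated gene. These are AF067061, AF067063, Tcstv3, Tdpoz3, Tdpoz4, BC080695, Pramef6, Pramef25, Phf11a, Spata22, Amy1 and Ttc30b. Their levels are uncertain because reads of the shared stretches may belong to either annotated gene.

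**Figure D1:**
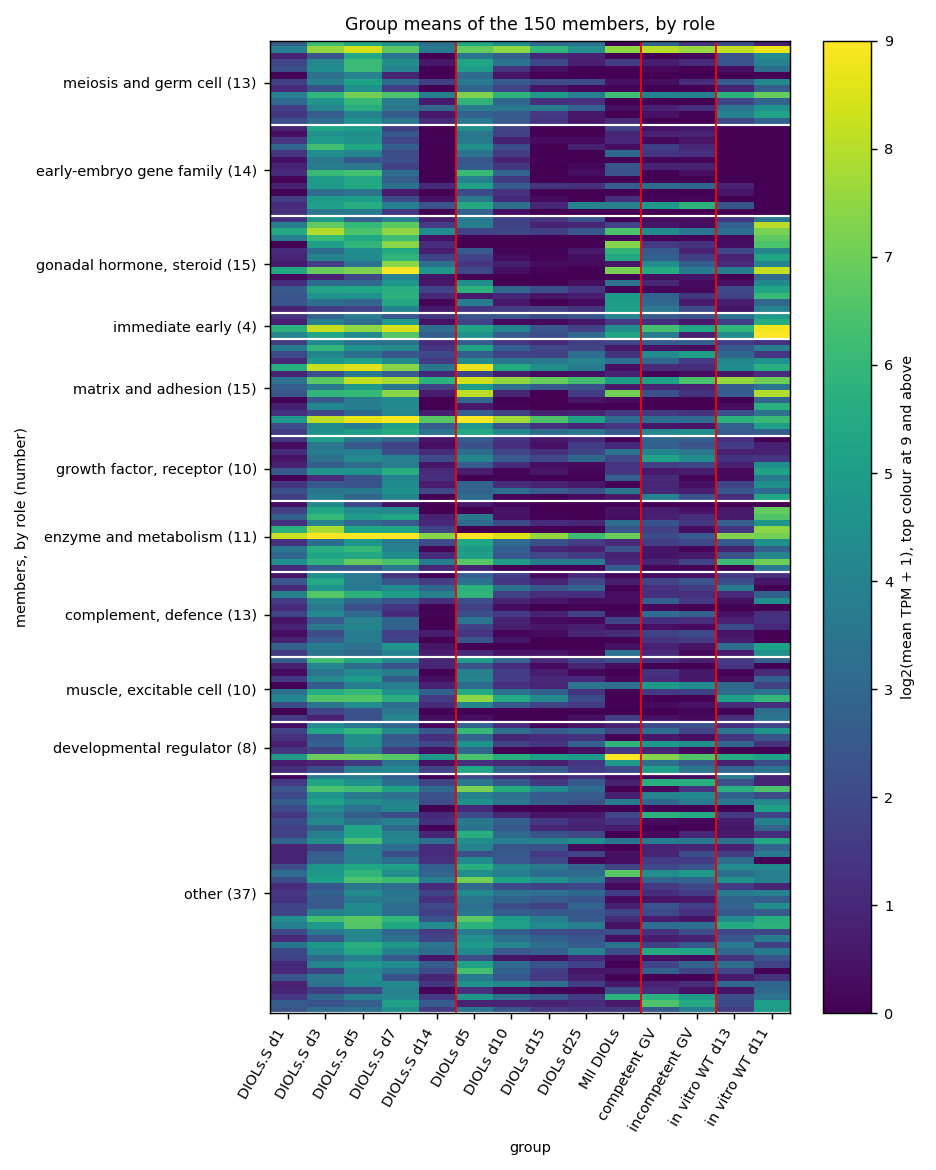
Mean level of each of the 150 members (rows, ordered by role) in the DIOL, GV and wild-type in vitro oocyte groups (columns), as log2(mean TPM + 1), with red lines between cell series. The early-embryo block is dark in wild-type in vitro oocytes of day 11, where all 14 genes are under 1 TPM, and the gonadal hormone block is dark in DIOLs from day 10 to day 25 but bright in MII DIOLs and in wild type of day 11.

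The genes of meiosis and the germ cell peaked together on day 5, as 12 of the 13 did. Dazl, an RNA-binding protein that licenses germ cells for gamete formation, had 11.9 and 15.5 TPM at day 1, 188 and 182 at day 3, 343 and 332 at day 5, 102 and 106 at day 7 and 13.3 and 9.47 at day 14. Hfm1, a helicase that promotes meiotic crossovers, had 2.51 and 2.77 TPM at day 1, 17.9 and 16.2 at day 3, 68.1 and 69.2 at day 5, 20.4 and 21.2 at day 7 and 0.9 and 0.11 at day 14. The replicates lay close in both genes except for Hfm1 on day 14, where it was at or under 0.9 TPM. Spata22, a partner of MEIOB on single-stranded DNA at recombination sites, had 0.81 and 0.79 TPM at day 1, 5.67 and 2.61 at day 3, 44.2 and 35.3 at day 5, 6.73 and 13.9 at day 7 and 0 and 0 at day 14. Prdm9, the histone methyltransferase that places recombination hotspots, had 2.41 and 1.8 TPM at day 1, 17.6 and 14.7 at day 3, 45.5 and 49.2 at day 5, 8.42 and 13.2 at day 7 and 6.59 and 7.07 at day 14. Prdm9 and Dazl were still detected at day 14, where Spata22 was listed at 0. Genes known mainly from the male germline were among the 13. Ly6k, a surface protein of male germ cells, had 54.1 and 73.8 TPM on day 5, against 7.39 and 7.55 TPM on day 1. Ccdc42, needed for the sperm tail in mice, was the exception that peaked on day 3, with 72.5 and 74.97 TPM.

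A stretch of Hfm1 is shown because 3 of 11 meiosis members with a RefSeq promoter, Hfm1, Rbm46 and Prdm9, hold CNCCTCAG, the motif described in mouse for the meiotic initiators STRA8 and MEIOSIN. It is the 250 bases before the RefSeq start on the minus strand, chr5:106925891-106926140 in GRCm38.p6. GENCODE starts the gene further upstream (chr5:106840192-106926321), so the stretch lies inside that gene model, where it overlaps no exon. Capitals mark the match, which reads on the reverse strand.
Hfm1: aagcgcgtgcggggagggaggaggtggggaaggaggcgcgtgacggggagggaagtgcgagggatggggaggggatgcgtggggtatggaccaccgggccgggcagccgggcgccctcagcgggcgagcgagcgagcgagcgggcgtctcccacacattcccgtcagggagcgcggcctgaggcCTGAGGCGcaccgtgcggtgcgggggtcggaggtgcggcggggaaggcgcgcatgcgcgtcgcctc
With both strands searched, the motif was in the 250 bases before 27.3% of those 11 genes and before 10.5% of the 105 members with a promoter, against 7.75% of 11288 genes of the table. CCAAT was before 63.6% of the 11 meiosis genes, 40.0% of the 105 members and 38.1% of all. Neither motif contains the other. A match is a description of these letters only.

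The early-embryo families peaked earlier, 7 of 14 genes on day 3 and 7 on day 5, and 12 of the 14 were under 1 TPM at day 14. AF067061, which lies in the Tcstv gene cluster, had 0.17 and 2.06 TPM at day 1, 60.1 and 75.6 at day 3, 116 and 40.1 at day 5, 8.17 and 8.98 at day 7 and 0 and 0 at day 14. Tcstv3, a marker of the 2-cell-like state of mouse stem cells, had 0.5 and 1.83 TPM at day 1, 39.7 and 25.8 at day 3, 68.2 and 24.8 at day 5, 15.8 and 12.0 at day 7 and 3.76 and 4.13 at day 14. On day 5, replicate 1 was higher than replicate 2 for both genes by more than the day-3 replicates differed. In replicate 2 alone both genes were higher on day 3 than on day 5, so their day-5 peak rests on replicate 1. All 14 genes of the role were higher in replicate 1 on day 5, and over all members 24 were at least 2 times higher in replicate 1 against 4 the other way. Tmem92, also a 2-cell-like gene, had 3.75 and 9.67 TPM at day 1, 80.4 and 71.6 at day 3, 63.9 and 15.4 at day 5, 1.8 and 9.00 at day 7 and 0 and 0 at day 14. The 7 measured genes of a 2-cell-like list, which include both Tcstv3 and Tmem92, summed to 997 to 1006 TPM on day 14 and to 355 to 418 TPM on day 3. The day-14 sum was therefore the higher one while these 2 members were low.

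Many of these genes are neighbours. Within chr13:119827961-120318178, 5 of the 6 genes of the table are members: AF067063, B020031M17Rik, AF067061, BC147527 and Tcstv3. Within chr4:143551700-143951016 all 3 genes of the table are members, BC080695, Pramef6 and Pramef25. Upstream stretches of 250 bases of the neighbours AF067061 and BC147527, both on the plus strand, are shown because both genes peak on day 5 in the group mean. A further reason is that AF067061 is the only member promoter with GATTNAATC, letters close to the core bound by the 2-cell factor DUX. They are chr13:120262845-120263094 and chr13:120300142-120300391 in GRCm38.p6, from RefSeq. Capitals mark the match on the plus strand, and BC147527 has none in this window.
AF067061: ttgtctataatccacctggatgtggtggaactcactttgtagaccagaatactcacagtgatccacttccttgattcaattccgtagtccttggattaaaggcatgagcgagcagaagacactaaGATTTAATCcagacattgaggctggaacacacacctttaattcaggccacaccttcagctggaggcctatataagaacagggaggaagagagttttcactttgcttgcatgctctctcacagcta
BC147527: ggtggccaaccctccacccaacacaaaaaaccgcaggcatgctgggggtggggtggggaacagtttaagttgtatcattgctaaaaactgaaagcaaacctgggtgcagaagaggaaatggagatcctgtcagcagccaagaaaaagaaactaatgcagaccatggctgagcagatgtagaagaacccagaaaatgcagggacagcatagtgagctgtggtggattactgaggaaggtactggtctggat
GATTNAATC, searched on both strands, was before 1 of 5 early-embryo members with a promoter and before 0.204% of all 11288 genes.

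Gonadal hormone and steroid genes peaked late, 11 of 15 on day 7 and 4 on day 3. Hsd3b1, the dehydrogenase that makes progesterone, had 0 and 0 TPM at day 1, 39.4 and 26.6 at day 3, 58.5 and 58.5 at day 5, 271 and 61.6 at day 7 and 1.45 and 0.98 at day 14. Inha, the alpha subunit of inhibin, had 62.0 and 23.9 TPM at day 1, 105 and 135 at day 3, 156 and 141 at day 5, 1025 and 224 at day 7 and 13.1 and 39.4 at day 14. Amh, anti-Müllerian hormone, had 0.44 and 0.6 TPM at day 1, 1.88 and 2.33 at day 3, 6.4 and 13.1 at day 5, 287 and 49.8 at day 7 and 7.38 and 10.7 at day 14. In all 3 genes the day-7 mean rests mostly on replicate 1. Of the 11 gonadal genes that peak on day 7, 8 still do without that library, and 4 of these stay among the 150, Hsd3b1, Inha and Amh included. Akr1cl, an aldo-keto reductase, and Wnt6, a WNT ligand, already had 206 and 289.8 TPM and 68.2 and 66.3 TPM on day 3. The summed level of the 18 granulosa genes, 8 of which are members, was 138 to 281 TPM on day 1, 496 to 574 on day 3, 433 to 439 on day 5 and 31.7 to 75.1 on day 14. Only Hsd3b1 and Fshr of that list were at 0 on day 1, and Lgr5 on day 14. The part of such cells in the members' values was not tested.

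The Hsd3b1 upstream stretch, the highest-scoring gene's, is the 250 bases on the minus strand at chr3:98859795-98860044 in GRCm38.p6, from RefSeq. Capitals mark CCAAT, which was before 54.5% of 11 gonadal members.
Hsd3b1: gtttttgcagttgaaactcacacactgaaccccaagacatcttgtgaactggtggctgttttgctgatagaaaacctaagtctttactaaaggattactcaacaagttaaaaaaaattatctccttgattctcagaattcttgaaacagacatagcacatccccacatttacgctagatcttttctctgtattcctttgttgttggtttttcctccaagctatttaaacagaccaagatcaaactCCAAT

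The signal-dependent factors had 3 of 4 peaks on day 7. Without replicate 1 of that day Egr2 alone still peaks on day 7, Egr1 peaks on day 3, and Jun peaks on day 3 and drops out of the 150. Egr1 had 66.8 and 36.6 TPM at day 1, 259 and 316 at day 3, 171 and 186 at day 5, 536 and 161 at day 7 and 8.39 and 8.26 at day 14. Egr2 had 1.14 and 0.27 TPM at day 1, 13.5 and 15.4 at day 3, 7.05 and 9.15 at day 5, 40.1 and 19.6 at day 7 and 0 and 0.71 at day 14. Both are transcription factors known for fast induction by growth factor signals. On day 7 replicate 2 was below every day-3 and day-5 library for Egr1 but above them for Egr2. Matrix genes were mixed, with 3 peaks on day 3, 5 on day 5 and 7 on day 7 (4 of the 7 without replicate 1). Thbs1, a secreted matrix protein that binds TGF-beta, had 5.66 and 2.78 TPM at day 1, 51.3 and 67.7 at day 3, 64.4 and 63.2 at day 5, 278 and 65.8 at day 7 and 0.67 and 0.62 at day 14. Igfbp6, which binds IGF2, had 30.4 and 24.1 TPM at day 1, 302 and 250.2 at day 3, 422 and 394 at day 5, 493 and 503 at day 7 and 83.3 and 119 at day 14. Unlike Thbs1, Igfbp6 kept over 80 TPM on day 14.

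The member with the highest peak was Ptgds, prostaglandin D2 synthase, with 285 and 316 TPM at day 1, 1554 and 1604 at day 3, 1928 and 2117 at day 5, 775 and 922 at day 7 and 135 and 195 at day 14. Every DIOLs.S library had over 100 TPM of it. Among other enzymes, Dct, of melanin synthesis, had 13.6 and 23.1 TPM on day 3, against 0 and 0.53 TPM on day 1. Growth factors and receptors peaked on day 7 in 6 of 10 cases, but without replicate 1 of that day 4 of the 6 still peak there and none of these 4 stays among the 150. Tie1, a receptor of endothelium, had 35.9 and 27.9 TPM on day 3. Complement and defence genes peaked early, 7 of 13 on day 3. Ifi27l2a, an interferon-induced gene, had 87.5 and 109 TPM on that day, and H2-M10.4, a class I histocompatibility gene, had 25.6 and 17.0 TPM. The complement protein factor I (Cfi) and the lectin Colec11 belong to the same role. Duox2 and Duoxa2, an oxidase and its maturation factor that are neighbours at chr2:122279247-122302885, had 9.54 and 14.0 TPM and 12.0 and 14.0 TPM on day 5. Of the genes of muscle and excitable cells, 6 of 10 peaked on day 5, when Vsnl1, a neuronal calcium sensor, had 19.6 and 16.6 TPM. Of the developmental regulators, Lmx1a had 20.4 and 14.9 TPM on day 3, and Bmi1, a subunit of Polycomb complex 1, had 123 and 128 TPM on day 5. Of the 37 others, 24 peaked on day 5, among them Ccne2, cyclin E2, with 57.1 and 59.0 TPM.

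**Figure D2:**
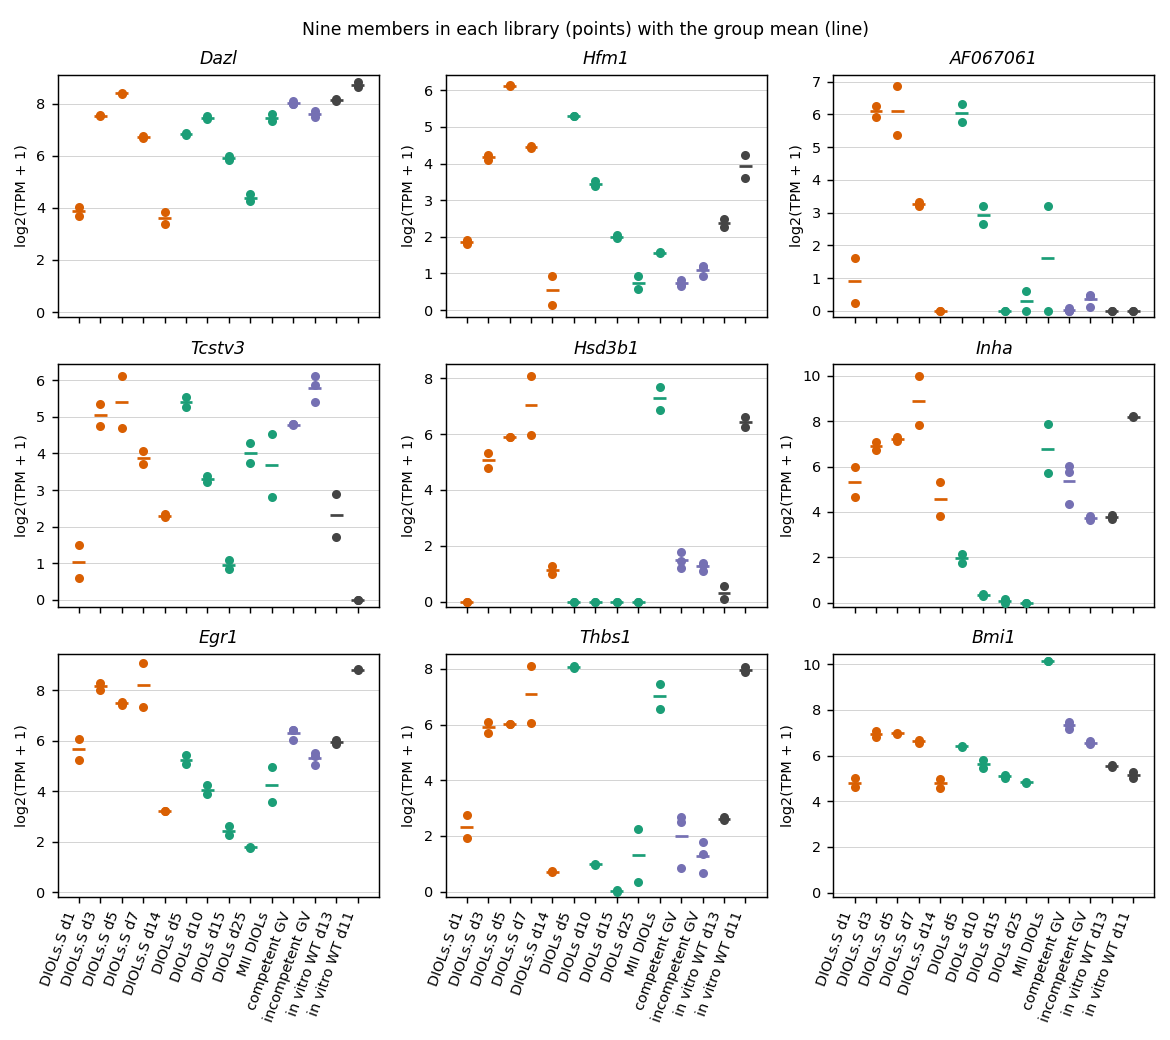
Level of 9 members in each library (points) and the group mean (line), as log2(TPM + 1), in DIOLs.S (orange), DIOLs and MII DIOLs (green), GV oocytes (violet) and wild-type in vitro oocytes (grey). Dazl was detected in every group, Hsd3b1 was listed at 0 in all 8 DIOLs libraries of days 5 to 25, and Bmi1 was highest in MII DIOLs.

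In the DIOLs series, which the rule did not use, members were also lower at later days, and much of the gonadal role was low from the start. The median member had 11.2 TPM at day 5, 2.63 at day 10, 1.06 at day 15 and 1.12 at day 25, and 15, 43, 71 and 71 of the 150 were under 1 TPM on those days. For every comparison below, limma was run on log2(TPM + 1) across all genes that reached 1 TPM in at least 2 libraries of the fit. A gene is called at a Benjamini-Hochberg adjusted p under 0.05 and a log2 fold change of at least 1, on a scale that understates changes of low genes. At day 25 against day 5 no member was called higher and 116 of 150 were called lower, and 44.3% of all 11603 genes were called in either direction, 10.9% higher and 33.4% lower. The DIOLs.S libraries counted towards that filter, and members entered through the groups where they are high. The median log2 fold change of the members was -2.19, against -0.50 for all genes. With TPM rescaled by the median of ratios, 0 were higher and 98 lower, all genes split 16.0% higher and 23.2% lower, and the medians were -1.79 and -0.16.

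By far most calls came between days 5 and 10. No member was called higher and 97 lower at day 10 against day 5, where 23.1% of all genes were called, 3.92% up and 19.2% down (after rescaling 0 members higher and 76 lower, against 5.48% and 13.3% of all genes). At day 15 against day 10, 0 were higher and 26 lower, where 3.64% of all genes were called, 1.12% up and 2.52% down (after rescaling 0 members higher and 20 lower, against 1.42% and 2.03% of all genes). At day 25 against day 15, 8 were higher and 15 lower, where 7.57% of all genes were called, 4.38% up and 3.19% down. In 1 fit over all libraries, 14 were called in all at that step.

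All 13 meiosis genes were called lower at day 25 than at day 5, with a median log2 fold change of -2.84. Dazl had 116 and 109 TPM at day 5, 169 and 181 at day 10, 56.3 and 62.8 at day 15 and 18.2 and 22.0 at day 25. Every day-10 library was above every day-5 library, and every day-25 library was below all others (log2 fold change -2.43, SE 0.14, adjusted p = 6.63e-12 for day 25 against day 5). At day 10 against day 5 its log2 fold change was 0.64 (SE 0.14, adjusted p = 0.000598), under the size needed for a call. Hfm1 had 38.3 and 38.4 TPM at day 5, 9.45 and 10.5 at day 10, 3.13 and 2.89 at day 15 and 0.89 and 0.48 at day 25. It was lower at each later day without overlap (log2 fold change -4.55, SE 0.20, adjusted p = 2.66e-13 for day 25 against day 5). Prdm9 had 12.9 and 11.7 TPM at day 5, 10.39 and 11.7 at day 10, 12.52 and 13.3 at day 15 and 4.31 and 6.45 at day 25, so its libraries of days 5, 10 and 15 lay close together (log2 fold change -1.08, SE 0.21, adjusted p = 0.000126 for day 25 against day 5). That call is lost after rescaling (log2 fold change -0.69) and without replicate 1 of day 25 (-0.835). By day 10, 8 of the 13 were called lower, or 5 after rescaling.

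The early-embryo genes were called lower at day 25 in 14 of 14 cases, with a median log2 fold change of -3.45, and 13 of the 14 already at day 10. AF067061 had 54.1 and 78.9 TPM at day 5, 5.34 and 8.13 at day 10, 0 and 0 at day 15 and 0 and 0.51 at day 25 (log2 fold change -5.75, SE 0.65, adjusted p = 1.62e-07 for day 25 against day 5). It was at or near 0 from day 15 on. Tcstv3 had 37.8 and 46.0 TPM at day 5, 9.47 and 8.33 at day 10, 1.13 and 0.79 at day 15 and 12.3 and 18.4 at day 25. Its level was lowest on day 15 and higher again on day 25, where no library overlapped day 15 (log2 fold change 3.04, SE 0.45, adjusted p = 4.84e-05 for day 25 against day 15). It was the only 1 of the 14 called higher at that step. Of the other 7 members called higher there, Htr5a, a serotonin receptor, changed by 2.48 and Madd, a regulator of RAB3, by 1.25.

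Gonadal hormone genes were called lower at day 25 in 8 of 15 cases. Their median level was 19.9 TPM in DIOLs.S of day 5 and 53.5 TPM on day 7, days that the rule used, but 2.52 TPM in DIOLs of day 5. Hsd3b1 was listed at 0 in all 8 DIOLs libraries, and Wnt6 and Shbg, the sex hormone carrier, in both of day 5. Inha had 3.38 and 2.4 TPM at day 5, 0.21 and 0.31 at day 10, 0.11 and 0 at day 15 and 0 and 0 at day 25. The highest of the role was Rspo1, which enhances WNT signals in the ovary, with 56.0 and 55.1 TPM on day 5. At day 5, 52 of the 150 members were at least 1 log2 unit higher in DIOLs.S than in DIOLs, and 6 were at least 1 unit lower. Of the 15 gonadal genes 10 were higher and 1 lower by this measure. This is a description without a test, since the rule picked members high in DIOLs.S, and the share of all genes was not computed. The granulosa list, which includes 8 members, summed to 10.5 to 14.6 TPM in DIOLs of day 10 and to 50.7 to 56.9 TPM on day 5. Nr5a1, Wnt6, Hsd3b1 and Fshr of the list were at 0 on day 5.

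Thbs1 had the largest fall of all members, with 272 and 262 TPM at day 5, 1.00 and 0.95 at day 10, 0 and 0.03 at day 15 and 3.8 and 0.26 at day 25. The day-5 libraries lay far above every other (log2 fold change -6.77, SE 0.63, adjusted p = 1.03e-08 for day 25 against day 5). Mfap4, a microfibril protein, had 424 and 399.6 TPM at day 5, 43.5 and 48.1 at day 10, 20.9 and 20.7 at day 15 and 11.2 and 13.3 at day 25 (log2 fold change -4.97, SE 0.21, adjusted p = 1.43e-13). Igfbp6 changed by -4.64 and Nkain4, a sodium pump interactor, by -5.47 on the log2 scale. Of the matrix genes 11 of 15 were called lower. A stroma list of 17 measured genes, 1 of them a member, moved with them, and summed to 53.1 to 77.6 TPM on day 10, where Col6a1, Lum and Tcf21 were at 0, and to 1974 to 1979 TPM on day 5. Whether such cells bear on these values was not tested. Of the remaining roles, 7 of 8 developmental regulators, 9 of 13 defence genes (Ifi27l2a changed by -4.65), 7 of 11 enzymes, 7 of 10 muscle genes, 6 of 10 growth factors and receptors, 3 of 4 signal-dependent factors and 31 of 37 others were called lower (after rescaling 7 defence genes, 4 growth factors and receptors and 22 others).

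**Figure D3:**
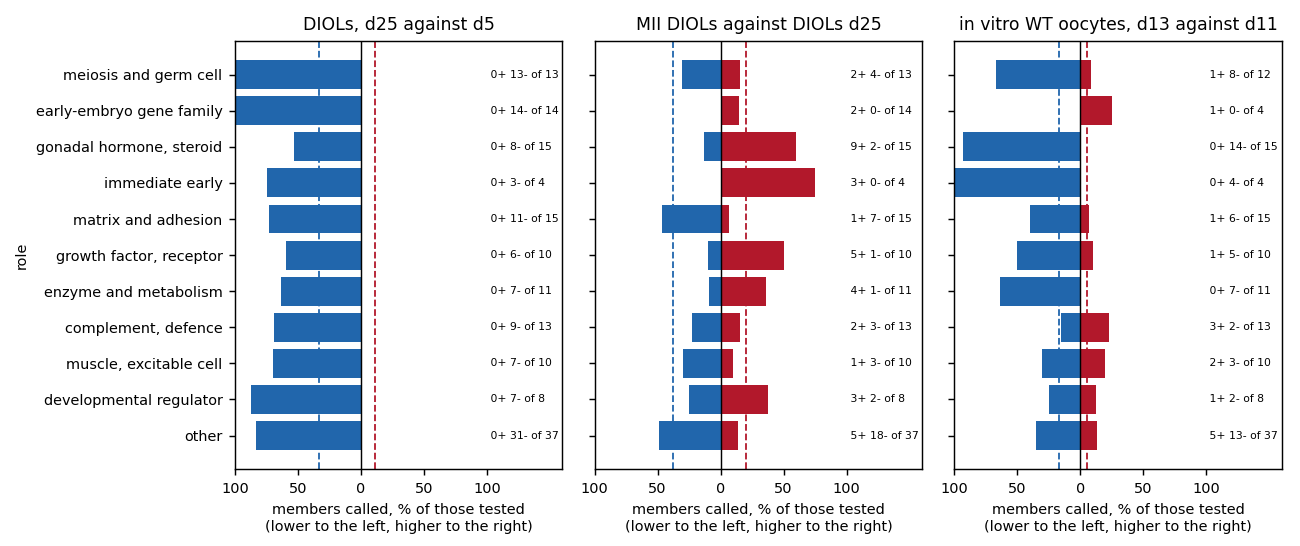
Share of the tested members of each role called higher (red, right) or lower (blue, left), with counts at the right edge and the share of all genes as dashed lines of the same colour, for DIOLs of day 25 against day 5, MII DIOLs against DIOLs of day 25, and wild-type in vitro oocytes of day 13 against day 11. The gonadal bar reads 9 higher and 2 lower of 15 in MII DIOLs and 0 higher and 14 lower of 15 in wild type.

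In MII DIOLs part of the group was higher than in DIOLs of day 25, and part was lower. Against DIOLs of day 25, 37 of 150 members were called higher and 41 lower, where 57.6% of all genes were called, 19.8% up and 37.8% down. After rescaling 54 were higher and 29 lower, and all genes split 31.1% and 28.5%. Calls among the members were thus about as frequent as among all genes, and the count says little of the group as a whole. MII libraries differ from day 25 in maturation, in the somatic cells and in hand isolation, which cannot be told apart.

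Of the gonadal genes 9 of 15 were called higher and 2 lower. Hsd3b1 had 116 and 205 TPM in MII DIOLs and was listed at 0 in DIOLs of day 25. Inha had 51.8 and 233 TPM in MII DIOLs and was listed at 0 in DIOLs of day 25. Fst, which binds activin, had 36.6 and 80.5 TPM in MII DIOLs, against 1.15 and 0 TPM in DIOLs of day 25 (log2 fold change 5.24, SE 0.61, adjusted p = 1.33e-07). None of these overlapped, though the MII replicates differed by over 1.5 times in each gene. The granulosa list shares 8 of its 18 measured genes with the members, Hsd3b1, Inha and Fst included. It summed to 335 to 788 TPM in MII DIOLs, against 23.3 to 34.0 TPM in DIOLs of day 25. In it 10 of 17 tested genes were called higher and 1 lower, Gng13 was at 0 in MII DIOLs, and Amhr2, Inha, Wnt6, Hsd3b1 and Lgr5 were at 0 on day 25. Granulosa RNA in the MII libraries was not tested.

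Members of other roles rose as well. Bmi1 had 1137 and 1145 TPM in MII DIOLs, against 27.3 and 27.2 TPM in DIOLs of day 25 (log2 fold change 5.34, SE 0.14, adjusted p = 4.31e-18). Dazl had 159 and 192 TPM in MII DIOLs, against 18.2 and 22.0 TPM in DIOLs of day 25 (log2 fold change 3.06, SE 0.14, adjusted p = 2.04e-14). Ccne2 had 110.0 and 96.5 TPM in MII DIOLs, against 8.57 and 7.91 TPM in DIOLs of day 25 (log2 fold change 3.49, SE 0.16, adjusted p = 2.58e-14). No library of MII DIOLs overlapped day 25 in these 3 genes, and the MII replicates lay close. Thbs1 had 94.3 and 175 TPM in MII DIOLs, against 3.8 and 0.26 TPM in DIOLs of day 25 (log2 fold change 5.72, SE 0.63, adjusted p = 5.51e-08). Among the meiosis genes Dazl and Shcbp1l were called higher and 4 lower, with Prdm9 at 0.31 and 0.29 TPM in MII DIOLs, against 4.31 and 6.45 TPM in DIOLs of day 25 (log2 fold change -2.27, SE 0.21, adjusted p = 3.59e-09). The largest falls were those of Inca1 (log2 fold change -3.38), Mfap4 (-3.33), Ccdc42 (-3.26), Wscd2 (-2.97) and S100z, listed at 0 in both MII libraries. Of the early-embryo genes AF067063 (2.79) and Pramef6 (1.95) were called higher, or 7 of 14 after rescaling. Matrix genes were 1 higher and 7 lower of 15, or 3 and 4 after rescaling.

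Competent and incompetent GV oocytes also differ in the tag of their columns, 3w and 2w, which the labels do not explain, so competence cannot be told apart from what the tag stands for. In GV oocytes from mice the median member had 1.33 TPM in competent and 1.28 TPM in incompetent oocytes, and 66 of 150 were under 1 TPM in competent and 70 in incompetent oocytes. Dazl was the highest, with 254, 272 and 251 TPM in competent GV oocytes, against 210.5, 195 and 179.8 TPM in incompetent ones. Bmi1 had 144, 177 and 161 TPM in competent GV oocytes, against 97.6, 92.0 and 89.1 TPM in incompetent ones. Both genes were higher in competent oocytes without overlap, but under the size needed for a call. In all, 16 members were called higher and 6 lower, where 9.96% of all genes were called, 2.54% up and 7.42% down. Without competent library 3 only 14 were called in all.

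Gonadal genes made up 7 of the 16. Inha had 19.3, 63.3 and 54.0 TPM in competent GV oocytes, against 12.2, 13.0 and 11.4 TPM in incompetent ones (log2 fold change 1.66, SE 0.55, adjusted p = 0.0204). Jun, an AP-1 subunit, had 1.98, 17.0 and 19.2 TPM in competent GV oocytes, against 1.03, 0.72 and 0.45 TPM in incompetent ones (log2 fold change 2.58, SE 0.54, adjusted p = 0.000586). The competent libraries varied widely, and the first of them was low for both, yet no library overlapped. The call of Inha is lost without competent library 2 (log2 fold change 1.34), competent library 3 (1.45) or incompetent library 3 (1.61). Cd200, a membrane protein that restrains immune cells, changed by 1.66. The granulosa list, which includes 8 members, summed to 138 to 223 TPM in competent and 110.5 to 131 TPM in incompetent oocytes. In this list 5 of 17 genes were called higher, none lower and none was at 0. Its part in the members' values was not tested. Col9a3, a collagen IX chain, had 35.4, 33.4 and 34.8 TPM in competent GV oocytes, against 88.5, 83.3 and 72.8 TPM in incompetent ones (log2 fold change -1.21, SE 0.09, adjusted p = 2.7e-09). Tcstv3 had 26.8, 26.9 and 26.4 TPM in competent GV oocytes, against 41.6, 57.1 and 68.9 TPM in incompetent ones (log2 fold change -1.01, SE 0.36, adjusted p = 0.0326). Both were lower in competent oocytes without overlap, as was Asb13 (-1.36), but Tcstv3 is a borderline call, lost after rescaling (log2 fold change -0.94), with a pseudocount of 0.1 (-1.03), in 1 fit over all libraries and without incompetent library 2 (-0.98) or 3 (-0.85) or any 1 competent library (-1.01 to -1.003).

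In the in vitro oocyte fit 139 of the 150 members passed the filter, and the 11 that did not include most of the early-embryo role, of which 4 of 14 were tested. In wild type of day 13 against day 11, 15 members were called higher and 64 lower, where, of 12306 genes, 22.0% of all genes were called, 5.50% up and 16.5% down. The median log2 fold change was -1.01 for the members and -0.24 for all genes. After rescaling 17 were higher and 54 lower, all genes split 9.51% and 11.2%, and the medians were -0.66 and 0.

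Of the gonadal genes 14 of 15 were called lower, with a median log2 fold change of -3.87. Hsd3b1 had 0.46 and 0.07 TPM in wild type of day 13, against 75.5 and 97.3 TPM in wild type of day 11 (log2 fold change -6.12, SE 0.29, adjusted p = 1.01e-14). Inha had 13.5 and 11.7 TPM in wild type of day 13, against 295 and 292 TPM in wild type of day 11 (log2 fold change -4.44, SE 0.13, adjusted p = 7.84e-19). Jun had 21.4 and 20.3 TPM in wild type of day 13, against 652 and 649.9 TPM in wild type of day 11 (log2 fold change -4.90, SE 0.29, adjusted p = 6.32e-13). These 3 were lower on day 13 by more than 10 times without overlap, as were Wnt6 (-6.50), Cst12, a cystatin (-6.33), and Serpina3a, a serine protease inhibitor (-6.07). The granulosa list shares 8 of its 18 measured genes with the members. It summed to 45.2 to 47.7 TPM on day 13 and to 1081.4 to 1081.5 TPM on day 11, with 14 of 17 genes called lower. Sox9 was at 0 on day 13, and Fshr on day 11. The stroma list summed to 59.0 to 67.3 TPM on day 13 and to 1047 to 1058 TPM on day 11, and a list of 11 measured immediate early and heat shock genes, 3 of them members, to 140.0 to 147 TPM on day 13 and to 2015 to 2023 TPM on day 11. The part of somatic cells in the sorted libraries was not tested.

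Meiosis genes were 1 higher and 8 lower of 12 tested, or 1 and 5 after rescaling. Hfm1 had 4.63 and 3.81 TPM in wild type of day 13, against 18.0 and 11.2 TPM in wild type of day 11 (log2 fold change -1.54, SE 0.17, adjusted p = 7.06e-08). Dazl had 286 and 273 TPM in wild type of day 13, against 393 and 458 TPM in wild type of day 11, and missed the size needed for a call (log2 fold change -0.60). Both genes were lower on day 13 without overlap. Of the members called higher on day 13, Fbxl21, an F-box protein, changed by 1.95. Tcstv3 and Defb25, a defensin, had 2.28 and 6.46 TPM and 14.6 and 10.1 TPM on day 13 and were listed at 0 in both day-11 libraries.

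In day-11 knockouts of 4 genes most meiosis members were called higher than in wild type, 8 to 10 of the 12 tested, while Shcbp1l and Ccdc42 were called higher in none. All 4 share the same 2 wild-type libraries. LHX8 and FIGLA are transcription factors of the early oocyte, STAT3 transmits cytokine signals, and SUB1 is a transcription coactivator. Sub1 itself stood at 71.1% of wild type in its knockout.

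In Lhx8 knockouts 37 of 139 members were higher and 14 lower, where 21.9% of all genes were called, 12.4% up and 9.47% down. In Figla knockouts the counts were 31 and 20, where 28.1% of all genes were called, 18.6% up and 9.52% down (after rescaling 24 members higher and 25 lower, against 13.1% and 12.1% of all genes). In Stat3 knockouts they were 31 and 22, where 27.3% of all genes were called, 15.8% up and 11.5% down. In Sub1 knockouts they were 25 and 23, where 22.8% of all genes were called, 13.5% up and 9.26% down. Meiosis genes were 10 higher and 0 lower of 12 in Lhx8, Stat3 and Sub1 knockouts, and 8 and 0 in Figla knockouts (7 and 0 after rescaling). Their median log2 fold changes were 3.45 in Lhx8, 3.24 in Figla, 3.60 in Stat3 and 3.34 in Sub1 knockouts.

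Hfm1 had 238 and 214 TPM in Lhx8 knockout, 297 and 272 TPM in Figla knockout, 199 and 205 TPM in Stat3 knockout and 147 and 162 TPM in Sub1 knockout libraries, against 18.0 and 11.2 TPM in wild type of day 11. The knockouts overlapped wild type nowhere (log2 fold changes 3.90 in Lhx8, 4.23 in Figla, 3.74 in Stat3 and 3.35 in Sub1 knockouts, SE 0.17, largest adjusted p = 4.98e-14). These levels were also above every DIOLs.S library, where the highest was 69.2 TPM. Prdm9 had 270.4 and 285 TPM in Lhx8 knockout, 259 and 251 TPM in Figla knockout, 315 and 300.3 TPM in Stat3 knockout and 205 and 179.7 TPM in Sub1 knockout libraries, against 26.4 and 18.3 TPM in wild type of day 11, again with no overlap (log2 fold changes 3.60, 3.48, 3.75 and 3.07, in that order). Ccne2 had 235 and 251 TPM in Lhx8 knockout, 104 and 93.1 TPM in Figla knockout, 302 and 296 TPM in Stat3 knockout and 182 and 169 TPM in Sub1 knockout libraries, against 13.9 and 12.6 TPM in wild type of day 11, and was lowest of the 4 in Figla knockouts (log2 fold change 2.80, SE 0.22, adjusted p = 7.38e-11). Spata22 changed by 4.12 in Lhx8 and 3.39 in Sub1 knockouts. Dazl had 1087 and 1102 TPM in Lhx8 knockout, 863 and 823 TPM in Figla knockout, 1732 and 1618 TPM in Stat3 knockout and 1308.50 and 1262 TPM in Sub1 knockout libraries, against 393 and 458 TPM in wild type of day 11. It was called higher except in Figla knockouts (log2 fold change 0.99), where it is called without wild-type replicate 2 (1.10) or Figla replicate 2 (1.02). Rbm46, an RNA-binding protein needed in germ cells, was called higher in the same 3 but not in Figla knockouts (log2 fold change 0.37, adjusted p = 0.211). The knockouts were not tested against each other.

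A list of 14 measured early meiosis genes, 1 of them a member, moved the same way, and was called higher in 11 cases in Lhx8, Figla and Stat3 knockouts and in 10 in Sub1 knockouts, and lower in none. It summed to 2263 to 3348 TPM in the 8 knockout libraries, against 703 to 744 TPM in wild type of day 11. Gonadal genes had 4 higher and 1 lower of 15 in Lhx8, 3 and 1 in Figla (2 and 2 after rescaling), 1 and 1 in Stat3 and 1 and 3 in Sub1 knockouts (1 and 4 after rescaling). The granulosa list includes 8 of the members. It summed to 1616 to 1621 TPM in Lhx8, 1174 to 1202 in Figla, 982 to 1013 in Stat3 and 818 to 894 in Sub1 knockouts, against 1081.4 to 1081.5 TPM in wild type of day 11. A macrophage and immune list of 12 measured genes, none a member, summed to 349 to 376 TPM in Lhx8, 372 to 393 in Figla, 37.2 to 44.2 in Stat3 and 2064 to 2095 in Sub1 knockouts, against 28.4 to 47.9 TPM in wild type of day 11, where 8 of the 12, including Csf1r, Adgre1 and Ptprc, were at 0. It was called higher in 9 genes in Lhx8, 10 in Figla, 1 in Stat3 and 12 in Sub1 knockouts, none of which had a gene of it at 0. The part of such cells in the members' values was not tested.

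Members called lower belonged to other roles. Col9a3 had 5.08 and 6.86 TPM in Lhx8 knockout, 9.19 and 6.77 TPM in Figla knockout, 5.74 and 6.12 TPM in Stat3 knockout and 12.2 and 10.38 TPM in Sub1 knockout libraries, against 117 and 142 TPM in wild type of day 11, with no overlap (log2 fold change -4.23, SE 0.14, adjusted p = 1.69e-18 in Lhx8 knockouts). S100z, a calcium-binding protein, was listed at 0 in both Lhx8 and both Figla knockout libraries, against 103 and 64.5 TPM in wild type of day 11. Nkain4 had 0.76 and 3.75 TPM in Lhx8 knockout, 6.88 and 5.07 TPM in Figla knockout, 0.6 and 0 TPM in Stat3 knockout and 7.18 and 8.38 TPM in Sub1 knockout libraries, against 51.5 and 72.1 TPM in wild type of day 11, also without overlap (log2 fold change -5.61, SE 0.36, adjusted p = 9.06e-13 in Stat3 knockouts). Ptgds was called lower in Figla knockouts (log2 fold change -4.73, SE 0.77, adjusted p = 1.51e-05). In Sub1 knockouts its call (-2.53) is lost without wild-type replicate 1 (-2.35) or Sub1 replicate 1 (-2.24) and with a pseudocount of 0.1 (-2.58). In Lhx8 and Stat3 knockouts it missed the threshold (log2 fold changes -1.53 and -1.16, adjusted p = 0.123 and 0.241), though in 1 fit over all libraries it was called lower in Lhx8 knockouts.

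**Figure D4:**
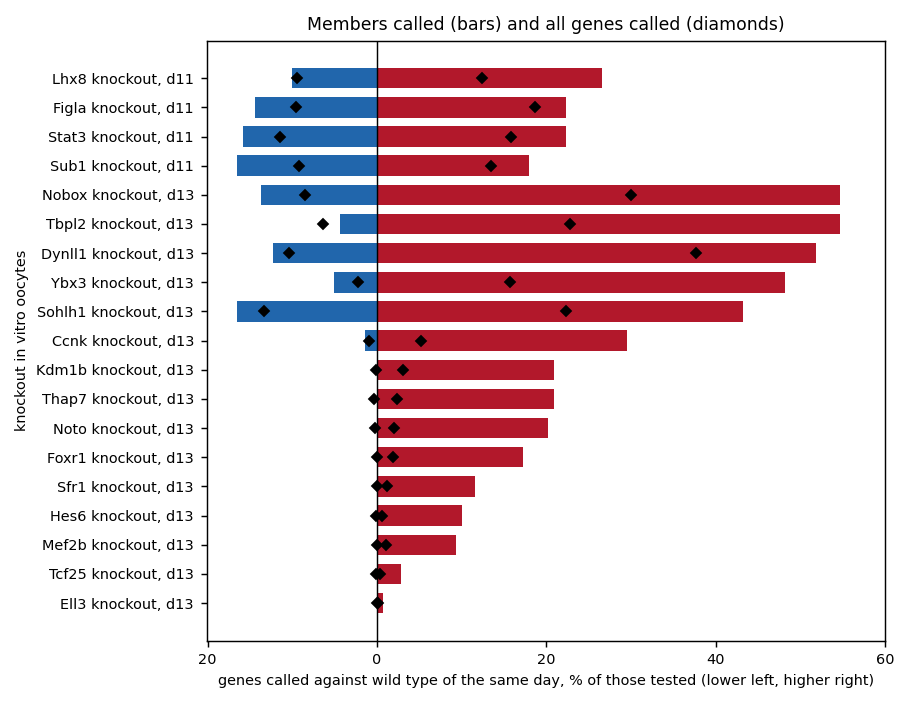
Share of the 139 tested members called higher (red) or lower (blue) in each knockout against wild type of the same day, with the share of all 12306 genes as diamonds. Members reach 76 of 139 higher in Nobox and Tbpl2 knockouts, and their bars extend past the diamonds on the right in all 19 comparisons.

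On day 13 the shift was mostly upward, and all 15 knockouts share the same 2 wild-type libraries. In Nobox knockouts 76 of 139 members were higher and 19 lower, where 38.5% of all genes were called, 30.0% up and 8.50% down (after rescaling 67 members higher and 23 lower, against 18.6% and 13.9% of all genes). In Tbpl2 knockouts they were 76 and 6, where 29.2% of all genes were called, 22.8% up and 6.35% down (after rescaling 72 members higher and 12 lower, against 15.6% and 11.5% of all genes). In Dynll1 knockouts they were 72 and 17, where 48.2% of all genes were called, 37.7% up and 10.4% down (after rescaling 60 members higher and 24 lower, against 24.6% and 17.6% of all genes). In Ybx3 knockouts they were 67 and 7, where 17.9% of all genes were called, 15.7% up and 2.21% down (after rescaling 65 members higher and 10 lower, against 12.3% and 5.49% of all genes). In Sohlh1 knockouts they were 60 and 23, where 35.7% of all genes were called, 22.3% up and 13.4% down (after rescaling 51 members higher and 25 lower, against 17.4% and 18.0% of all genes). The libraries labelled Ccnk knockout had 41 and 2, where 6.14% of all genes were called, 5.23% up and 0.910% down (after rescaling 35 members higher and 2 lower, against 3.14% and 1.92% of all genes). Rescaling moved the median log2 fold change of all genes from 0.52 to 0.08 in Nobox, from 0.36 to 0.02 in Tbpl2, from 0.69 to 0.22 in Dynll1, from 0.20 to 0 in Ybx3 and from 0.22 to 0.01 in the libraries labelled Ccnk knockout. The members' rescaled medians were 1.06, 1.17, 0.73, 0.90 and 0.50 in that order.

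In the other 9 knockouts no member was called lower. In Kdm1b knockouts 29 were higher, where 3.19% of all genes were called, 3.04% up and 0.154% down. In Thap7 knockouts 29 were higher, where 2.74% of all genes were called, 2.40% up and 0.341% down. In Noto knockouts 28 were higher, where 2.23% of all genes were called, 2.04% up and 0.195% down. In Foxr1 knockouts 24 were higher, where 1.88% of all genes were called, 1.84% up and 0.0325% down. In Sfr1 knockouts 16 were higher, where 1.24% of all genes were called, 1.18% up and 0.0569% down, in Hes6 knockouts 14, where 0.593% of all genes were called, 0.528% up and 0.0650% down, and in Mef2b knockouts 13, where 1.08% of all genes were called, 1.02% up and 0.0569% down. In Tcf25 knockouts 4 were higher, where 0.504% of all genes were called, 0.366% up and 0.138% down (after rescaling 2 members higher and 1 lower, against 0.262% and 0.319% of all genes), and in Ell3 knockouts 1, where 0.114% of all genes were called, 0.0975% up and 0.0163% down. The smaller counts lean on single libraries. Without replicate 2 of wild type they were 12 for Foxr1, 7 for Mef2b, 8 for Hes6 and 0 for Ell3. Without a knockout library they were 14 for Foxr1 (either replicate), 8 for Mef2b (replicate 2), 10 for Sfr1 (replicate 2), 7 for Hes6 (replicate 1), 2 for Tcf25 (replicate 2) and 0 for Ell3 (replicate 1).

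Gonadal genes were called higher in every day-13 knockout, though in Ell3 knockouts this was Hsd3b1 alone. They were higher in 15 of 15 cases in Tbpl2, in 14 in Nobox, Dynll1, Ybx3 and Kdm1b, and in 12 in Thap7 knockouts, with none lower (12 in Dynll1 and 13 in Nobox after rescaling). In Sohlh1 knockouts 7 were higher and 1 lower, and in Ell3 knockouts 1 was higher. Hsd3b1 was called higher in all 15 knockouts. It had 156 and 125 TPM in Ybx3 knockout, 102 and 118 TPM in Tbpl2 knockout, 58.0 and 73.8 TPM in Nobox knockout and 3.5 and 1.49 TPM in Ell3 knockout libraries, against 0.46 and 0.07 TPM in wild type of day 13. Ybx3 and Ell3 were the highest and the lowest mean of the 15, and no knockout library overlapped wild type (log2 fold change 6.82, SE 0.29, adjusted p = 1.93e-15 in Ybx3, log2 fold change 1.42, SE 0.29, adjusted p = 0.0174 in Ell3 knockouts). The Ell3 call is lost without wild-type replicate 1 (log2 fold change 1.65), wild-type replicate 2 (1.197) or Ell3 replicate 1 (0.99), and in 1 fit over all libraries. Inha was called in 13 of 15. It had 598 and 587 TPM in Ybx3 knockout, 137 and 148 TPM in Kdm1b knockout and 57.7 and 58.3 TPM in Hes6 knockout libraries, against 13.5 and 11.7 TPM in wild type of day 13 (log2 fold changes 5.45, 3.40 and 2.12). Thbs1 was called higher in 14 knockouts, and Adamts16, Akr1cl, Aldh1a1, Fndc5 and Jun in 13.

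The granulosa list, in which 8 of the 18 measured genes are gonadal members, moved with them and is not separate from them. It summed to 1377 to 1402 TPM in Ybx3, 932 to 1030.5 in Tbpl2, 732 to 759 in Nobox, 414 to 456 in Dynll1, 334 to 344 in Kdm1b and 56.6 to 58.4 in Ell3 knockouts, against 45.2 to 47.7 TPM in wild type of day 13. Called higher were 15 of 17 in Tbpl2, 14 in Ybx3, 13 in Nobox and Dynll1 and 12 in Kdm1b knockouts. Fshr was at 0 in those 5 knockouts and no gene of the list in Ell3 knockouts. The macrophage and immune list summed to 285 to 296 TPM in Ybx3, 226 to 236 in Dynll1, 169 to 179 in Kdm1b, 73.0 to 96.2 in Nobox and 31.2 to 34.8 in Tbpl2 knockouts, against 75.8 to 91.4 TPM in wild type of day 13, with 10 of 12 genes called higher in Ybx3, 9 in Dynll1 and 4 in Kdm1b knockouts. The stroma list summed to 1189 to 1200 TPM in Tbpl2, 1088 to 1181 in Ybx3, 719 to 771 in Nobox, 624 to 631 in Dynll1 and 621 to 627 in Kdm1b knockouts, against 59.0 to 67.3 TPM in wild type of day 13, with 11 to 15 of 17 genes called higher in those 5 knockouts. The part of somatic cells in the sorted knockout libraries was not tested.

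The count of meiosis genes called varied with the knockout. They were 11 higher and 0 lower of 12 in Nobox and Dynll1 (10 and 0 in each after rescaling), 10 and 0 in Tbpl2, 8 and 1 in Ybx3, 7 and 1 in Sohlh1 knockouts (5 and 1 after rescaling) and 6 and 0 in the libraries labelled Ccnk knockout. Hfm1 had 113 and 104 TPM in Tbpl2 knockout, 101 and 112 TPM in Dynll1 knockout and 1.98 and 1.68 TPM in Kdm1b knockout libraries, against 4.63 and 3.81 TPM in wild type of day 13. It was above wild type without overlap in Tbpl2 and Dynll1 knockouts (log2 fold change 4.39, SE 0.17, adjusted p = 1.9e-16 in Tbpl2, log2 fold change 4.36, SE 0.17, adjusted p = 3.82e-17 in Dynll1 knockouts). In Kdm1b knockouts both libraries were below wild type (log2 fold change -0.88), under the size needed for a call, which it passed after rescaling (-1.01) and with a pseudocount of 0.1 (-1.16). Adad1, an RNA-binding protein of male germ cells, changed by 5.80 in Dynll1 and 5.32 in Tbpl2 knockouts. The difference between knockouts was not tested. A list of 17 growing-oocyte genes, none a member, was called lower in all 17 cases in Nobox, Sohlh1, Tbpl2 and Dynll1 knockouts.

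**Figure D5:**
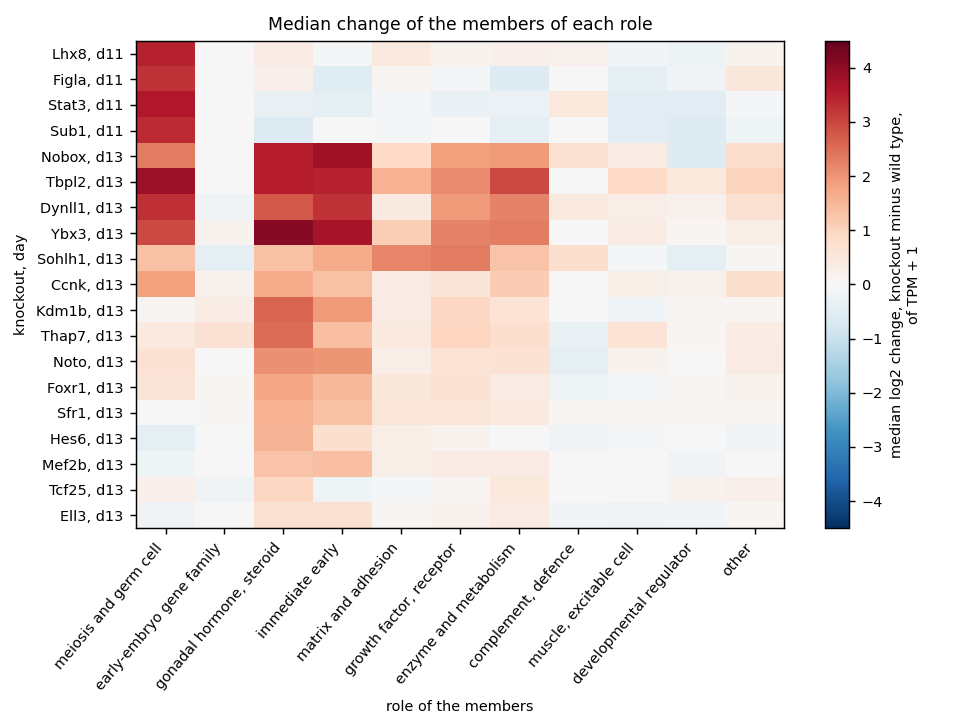
Median log2 fold change, knockout minus wild type of the same day on log2(TPM + 1), of the tested members of each role (columns) in each knockout (rows). Day-11 rows are red in the meiosis column, with medians of 3.24 to 3.60. Day-13 rows vary in both columns, up to 4.11 for gonadal hormone genes in Ybx3 knockouts. Median levels of meiosis members ran from 2.8 TPM (Hes6) to 95.7 TPM (Dynll1) in day-13 knockouts, against 3.89 TPM in wild type. Those of gonadal members ran from 2.6 TPM (Ell3) to 41.2 TPM (Ybx3), against 1.1 TPM.

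In Sohlh1 knockouts the germ cell gene Ly6k and most matrix genes were called higher. SOHLH1 is a transcription factor of early germ cells. Ly6k had 386 and 457 TPM in Sohlh1 knockout libraries, against 1.48 and 3.67 TPM in wild type of day 13 (log2 fold change 6.95, SE 0.74, adjusted p = 1.27e-08). Mfap4 had 514 and 832 TPM in Sohlh1 knockout libraries, against 22.9 and 16.1 TPM in wild type of day 13 (log2 fold change 5.02, SE 0.22, adjusted p = 3.51e-16). Both genes were far above wild type in both libraries. Dcn, decorin, had 61.1 and 869.7 TPM in Sohlh1 knockout libraries, against 7.41 and 4.21 TPM in wild type of day 13, so its change rests largely on replicate 2. The stroma list summed to 342 and 5358 TPM in the Sohlh1 knockout libraries, against 59.0 to 67.3 TPM in wild type of day 13, with 16 of 17 genes called higher. The macrophage and immune list moved too, and summed to 134 to 2505 TPM in the Sohlh1 knockout libraries, against 75.8 to 91.4 TPM in wild type of day 13, with 9 of 12 genes called higher and Adgre1 and Cd52 at 0 in the knockouts. The part of either list in the matrix members, 10 higher and 2 lower of 15 (7 higher and 1 lower of 15 for the gonadal role), was not tested.

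Some members were called lower. Col9a3 had 4.13 and 4.02 TPM in Sohlh1 knockout, 10.8 and 8.83 TPM in Dynll1 knockout and 11.2 and 9.66 TPM in Nobox knockout libraries, against 183 and 196 TPM in wild type of day 13 (log2 fold change -5.23, SE 0.14, adjusted p = 8.75e-21 in Sohlh1 knockouts). None of these libraries overlapped wild type. Defb25 was listed at 0 in all Nobox, Dynll1 and Sohlh1 knockout libraries, and Tcstv3 in all Nobox, Tbpl2 and Dynll1 knockout libraries, against 14.6 and 10.1 TPM and 2.28 and 6.46 TPM in wild type of day 13. Since the wild type is shared, the same 2 libraries stand behind each of these calls.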

How the data were processed

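The authors deposited 1 table of TPM values per gene. The submitters' processing notes name STAR 2.6.0, featureCounts 1.6.0 and build mm10, and how TPM was computed is not given in the sources used here. Of 15163 rows, 1 incomplete row and 22 whose names had become dates were left out. The columns of 68 libraries were matched to labels, 80 other columns were not used, and 3 samples without a column were not analysed here. Levels are TPM as deposited.

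The members, roles and gene lists were chosen with earlier results of these data known. limma 3.58.1 in R 4.3.3, with trend and robust moderation, was run on log2(TPM + 1) in 2 fits, 42 in vitro oocyte libraries and 26 DIOL and GV libraries, each with 1 term per group, on genes with at least 1 TPM in at least 2 libraries. Benjamini-Hochberg adjustment covered all genes of a fit. Tables and figures used Python 3.11.15, pandas 2.3.3, numpy 2.4.6 and matplotlib 3.10.9. The procedure was tested on simulated data. Genes named are those with the 20 highest scores, 5 on each side of the limit, members of the gene lists, the largest called changes of each main comparison and the highest levels, and members named beyond these were picked with their values in view; a few genes of this rule are not reported here. Positions come from GENCODE M21 and promoters from RefSeq, both GRCm38. GV columns were matched to their group only. The alternatives were a pseudocount of 0.1, no filter on low values, rescaling by the median of ratios, a replicate block, 1 fit over all libraries and leaving out each library, and, added after the data were seen, the choice of members without DIOLs.S day 7 replicate 1.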

Additional observations from a re-analysis of the deposited data

How the results depend on the processing

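Of 266 alternative counts, of members called over the 26 comparisons or of members kept by the rule, 250 were within 1.5 times the reported count. The counts of members kept, 114 to 141 of 150, were all among these. In 18 comparisons all counts of calls were within that limit. DIOLs of day 25 against day 15 had 14 calls in 1 fit over all libraries. With a pseudocount of 0.1, Ell3 knockouts had 3 calls and Tcf25 knockouts 11, and Ell3 knockouts had 0 in 1 fit over all libraries. Leaving out 1 library gave 14 to 21 calls for competent against incompetent GV oocytes, 12 to 17 for Foxr1, 7 to 10 for Mef2b, 10 to 12 for Sfr1, 7 to 10 for Hes6, 0 to 1 for Ell3 and 2 to 4 for Tcf25 knockouts, and the cause was not tested. Where a group was left with 1 library, it was assumed to vary like the others of its fit. Same-numbered libraries did not deviate together (correlations of -0.023 to 0.033), and a replicate block moved the 25 counts it was run on by at most 7 calls. GV oocytes had neither check, because their columns were matched to their group only and not to numbered samples. Among results for single members no direction reversed. With members chosen without DIOLs.S day 7 replicate 1, there were 102 calls for DIOLs of day 10 against day 5, 121 for day 25 against day 5, 79 for MII DIOLs, 71 for wild type of day 13, 57 for Lhx8, 75 for Tbpl2 and 21 for Kdm1b knockouts. Read depth behind the TPM values is unknown, so precision rests on replicates alone.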
